A study of Homo sapiens with 18 samples.

Results

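The comparison described here set a drug-resistant population of NCI-H460, labelled resistant #2 (resistant 2 below), against the parental population of that line while both were exposed to all-trans retinoic acid (ATRA) and decitabine. NCI-H460 is an established human large-cell lung cancer line that grows as an attached epithelial layer, and its genotype is labelled WT in every group. The 6 libraries, 3 of resistant 2 and 3 of parental cells, were chosen by their labels out of 18 libraries in the series. Both groups received 2 µM ATRA with 50 µM decitabine at 24 h and were lysed at 72 h, so the parental cells were under the drugs as well. Set beside them were 3 libraries of a second resistant population, resistant #1 (resistant 1), under the same drugs. A further 3 resistant 2 and 3 parental libraries received the solvent DMSO at 0.7% by volume in the same schedule. The labels call the 3 libraries of a group biological replicates. How the resistant populations were derived, to which agent they are resistant, and whether each is a single clone is not given in the sources used here, so each is described as 1 population of cells.

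Decitabine is a deoxycytidine analogue that deoxycytidine kinase phosphorylates and replicating cells insert into their DNA, where it holds DNA methyltransferases fast, so that cytosine methylation is lost as cells divide. Genes that are held silent by promoter methylation in adult tissue, among them germ-line and early-embryo genes, are known to be switched on by it. ATRA binds retinoic acid receptors, which pair with retinoid X receptors on target genes such as those of its own binding proteins and breakdown enzymes. The analogue also damages DNA, and cells with working p53 answer with p53 target genes.

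The values are normalized counts, the reads of a gene divided by a library's size factor. The table of the drug-exposed libraries had lost its decimal points, which were put back value by value from the size of 1 read, and 19996 of the 25175 genes that reached the filter could be restored (79.4%). The other 5179 genes were left out and are not described, more often among low genes (42.8% restored under a mean of 30) than among high ones (96.5% at a mean of 1000 or more). Restored genes held 114213853 to 135487831 reads per resistant 2 library and 127225648 to 148866901 per parental library. Over the 2000 most variable genes, the first principal component took 65.1% of the variance of the 9 drug-exposed libraries and held resistant 2 at one end and parental cells at the other. The drug and DMSO tables were normalized separately, so a level set beside one from the other table carries that difference in scale. The epithelial markers EPCAM, KRT8, KRT18, KRT19 and CDH1 were all present and summed to 178506 to 230008 normalized counts in resistant 2 and 331211 to 436655 in parental cells. The 5 restored of 7 fibroblast markers summed to 1340 to 2205 in resistant 2 and 3556 to 4302 in parental cells, and LYZ, the one restored leukocyte marker of 7, reached 142 to 179 in resistant 2 against 34.3 to 62.5 in parental cells. The 4 restored of 5 endothelial markers summed to 376 to 534 in resistant 2 against 611 to 853 in parental cells, and no restored marker was without a read in all 6 libraries. The part of such cells in the results was not tested. In bulk RNA, fewer cells of a type and less RNA per cell cannot be told apart. Values after a mean are SDs over 3 libraries, and values after a log2 difference are standard errors (SE) from the fit.

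Resistant 2 and parental cells under the drugs differed in most of the transcriptome. Of 19996 genes tested with limma on log2(normalized count + 1), 14231 (71.2%) differed at an adjusted p under 0.05, of which 7528 were higher in resistant 2 (37.6%) and 6703 were lower (33.5%), with a median log2 difference of 0.06 over all genes. The 3 libraries of resistant 2 and the 3 of parental cells did not overlap in 74.4% of genes, with resistant 2 above in 39.1% and below in 35.3%. These shares are the background against which each gene list below is read. Changes of at least 2-fold held for 2889 genes that were higher (14.4%) and 3497 that were lower (17.5%). The large changes ran mostly downward: past 32-fold, 65 genes were higher and 326 were lower, and past 256-fold 8 were higher and 53 lower. Protein-coding genes made up 202 of the 326, pseudogenes 62 and long non-coding RNAs 53. In 99 genes resistant 2 had no read in any drug-exposed library while parental cells averaged at least 50 normalized counts, and the reverse held for 2 genes, both long non-coding RNAs. With DMSO, 6951 of 21643 genes tested were higher in resistant 2 (32.1%) and 6451 were lower (29.8%), with a median of 0.02. Of the 14231 genes called with the drugs, 8001 were called in the same direction with DMSO, 1140 in the opposite direction and 3918 were tested there but not called. Another 1172 were under the filter with DMSO, and 1097 of those were lower in resistant 2 with the drugs.

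**Figure D1:**
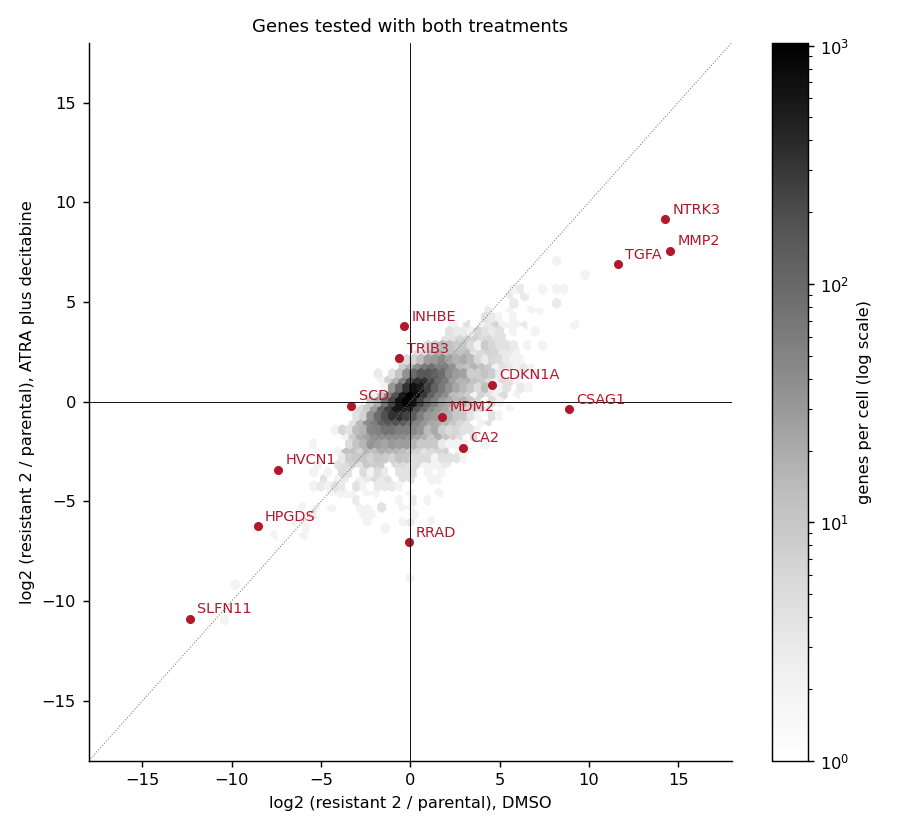
Each hexagon holds genes placed by their log2 difference of resistant 2 minus parental with ATRA plus decitabine (y axis) and with DMSO (x axis), shaded by the number of genes, for genes tested in both tables, with some named genes as red points. SLFN11, NTRK3 and MMP2 lie far out on the same side in both treatments, RRAD lies at -7.05 with the drugs and -0.09 with DMSO, and MDM2 lies on opposite sides.

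The genes that stood highest in resistant 2 included the axon guidance and nerve growth genes UNC5C, NTRK3 and SLIT3, and all 12 protein-coding genes of largest increase were also called higher than in resistant 1 and called higher with DMSO. UNC5C (ENSG00000182168, chromosome 4, 95162504 to 95549206 on GRCh38), a receptor for the guidance cue netrin, had 2515, 3729 and 3588 normalized counts in resistant 2, against 1.74, 0 and 1.56 in parental cells. Parental cells were therefore close to empty for it, and the 2 groups did not overlap. The log2 difference was 10.72 ± 0.342 (limma, SE; adjusted p = 3.90e-10), a size that depends on the pseudocount because parental cells had almost no reads. The 250 bases before its transcription start in RefSeq, at chr4:95548974-95549223 on the minus strand of GRCh38.p14, are printed as those of the gene of largest increase. They are shown since CG pairs are the sites of the methylation that decitabine removes, though these libraries measure RNA and not methylation. The gene place above is from GENCODE, whose start differs, so most of these bases lie within that place. Capitals mark the 17 CG pairs in them, where the median over all genes tested was 20.
UNC5C: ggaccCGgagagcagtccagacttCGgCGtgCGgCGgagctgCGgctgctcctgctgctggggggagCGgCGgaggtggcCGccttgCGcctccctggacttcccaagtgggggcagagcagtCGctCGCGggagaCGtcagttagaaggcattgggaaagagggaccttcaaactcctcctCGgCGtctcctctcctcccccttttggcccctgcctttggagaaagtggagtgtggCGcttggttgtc
NTRK3 (chromosome 15, 87859751 to 88256768), the receptor for neurotrophin-3, had 36049, 59451 and 54003 normalized counts in resistant 2, against 99.8, 72.4 and 83.3 in parental cells (log2 difference 9.16 ± 0.202). SLIT3 (chromosome 5, 168661733 to 169301129), a secreted ligand of the Robo receptors, had 94055, 68707 and 70284 in resistant 2, against 161, 123 and 127 in parental cells (9.13 ± 0.144). Both genes were at 1.63 and 1.61 normalized counts on average in parental cells given DMSO, so the parental levels with the drugs, though low, were above those with DMSO in the other table. SEMA6D, a membrane-bound semaphorin, differed by 5.64 ± 0.127, at 7368 ± 794 normalized counts in resistant 2 and 147 ± 3.43 in parental cells (SD, n = 3 each). Its relative SEMA3E, a secreted semaphorin, went the other way, at 13.7 ± 6.74 in resistant 2 and 1698 ± 107 in parental cells (log2 difference -6.95 ± 0.251). Across the axon guidance list, 19 of 43 genes were higher and 16 lower, with a median of 0.18, so the list as a whole sat near the background.

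Matrix genes held the largest absolute increases. FN1 (chromosome 2, 215360440 to 215436172), which encodes fibronectin, had 5674227, 6268815 and 5180659 normalized counts in resistant 2, against 517569, 444810.0 and 446509 in parental cells. It took 3.50 to 4.02% of all restored reads in resistant 2 and 0.385 to 0.440% in parental cells, with a log2 difference of 3.60 ± 0.106 (adjusted p = 2.31e-10). IGFBP5 (chromosome 2, 216672105 to 216695525), a secreted binder of insulin-like growth factors, had 332868, 340563 and 309493 in resistant 2, against 926, 985 and 1055 in parental cells, a 331-fold ratio of means. TIMP3, an inhibitor of metalloproteinases held in the matrix, had 52229, 49051 and 34773 in resistant 2, against 134, 143 and 119.9 in parental cells (8.39 ± 0.226). For these 3 genes every resistant 2 library stood above every parental one. MMP2, a gelatinase, had 85835, 116000.1 and 149633 normalized counts in resistant 2, against 592, 645 and 558 in parental cells (7.58 ± 0.162). SPP1, encoding osteopontin, averaged 775041 ± 100413 in resistant 2 and 104862 ± 5952 in parental cells, TGFBI, a matrix adaptor induced by TGF-beta, averaged 1096957 ± 93505 in resistant 2 and 282601 ± 31651 in parental cells, and TIMP1 averaged 640861 ± 196968 in resistant 2 and 150861 ± 17115 in parental cells (SD, n = 3 each). COL12A1, a fibril-associated collagen, differed by 6.42 ± 0.103 on the log2 scale and COL8A1 by 3.64 ± 0.106. Not every collagen rose: COL17A1, the hemidesmosomal collagen of epithelia, stood at 68.4 ± 18.8 in resistant 2 and 1727 ± 650.5 in parental cells (-4.61 ± 0.264). Of 30 collagen and laminin genes tested, 17 were higher and 9 lower, with a median of 0.33 that turned to -0.01 under quantile normalization. Of 16 metalloproteinases and inhibitors, 9 were higher and 3 lower (median 0.51).

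The remaining genes of largest increase came from unrelated families. LPL, lipoprotein lipase, had 41912, 39315 and 22800.1 normalized counts in resistant 2, against 143, 192 and 174 in parental cells. CFI, the serine protease complement factor I, had 10313, 13263 and 13789.7 in resistant 2, against 41.7, 40.6 and 56.8 in parental cells. AFF2, a nuclear protein gene on the X chromosome, averaged 8735 ± 1678 in resistant 2 and 31.8 ± 5.12 in parental cells (SD, n = 3 each). PI3, the elastase inhibitor elafin, averaged 4843 ± 1715 and DAAM2, a formin of WNT signalling, 5431 ± 604 in resistant 2, against 32.9 ± 6.73 and 43.0 ± 11.8 in parental cells. The 12 log2 differences ran between 6.98 and 10.72, and in each gene the resistant 2 and parental libraries did not overlap.

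**Figure D2:**
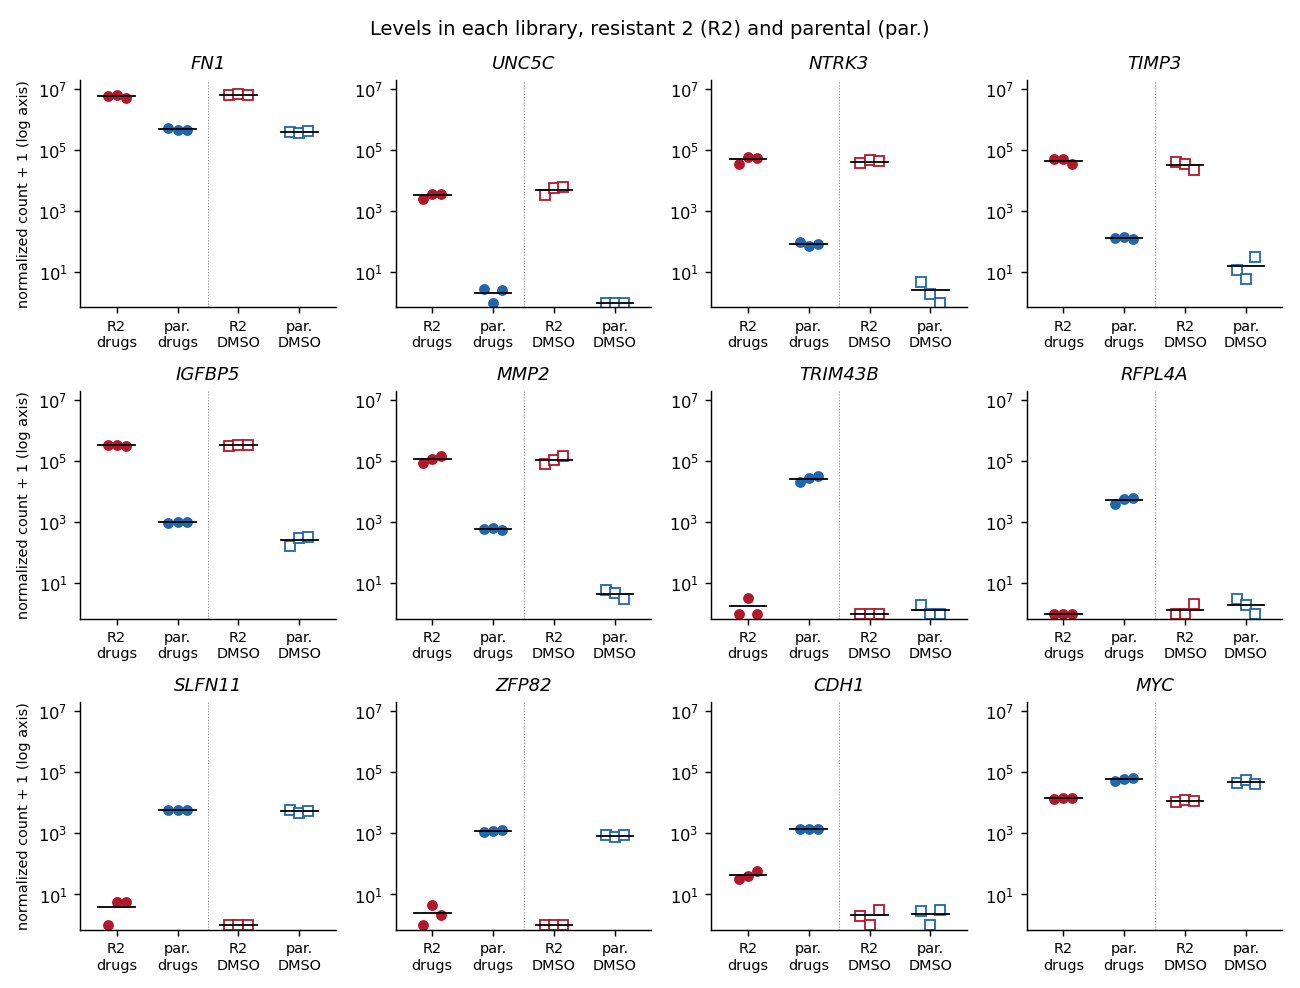
Each panel plots 1 gene, with normalized count + 1 on a log axis, for the 3 libraries of resistant 2 and of parental cells with ATRA plus decitabine (drugs) and with DMSO; lines mark group means, and the 2 treatments were normalized separately. FN1, UNC5C, NTRK3, TIMP3, IGFBP5 and MMP2 stand higher in resistant 2 in both treatments, TRIM43B and RFPL4A are high in the drug-exposed parental libraries alone among the groups plotted, and SLFN11 is near 0 in resistant 2 in both.

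The genes that stood lowest in resistant 2 were mostly genes of the cleavage-stage embryo, 10 of the 12 protein-coding genes of largest decrease, which parental cells carried under the drugs and resistant 2 did not. These genes, expressed in the human embryo around the activation of its own genome, are known targets of the transcription factor DUX4. TRIM43B (ENSG00000144010, chromosome 2, 95476967 to 95484731) had 0, 2.30 and 0 normalized counts in resistant 2, against 20497, 28755 and 31753 in parental cells. Resistant 2 gave 2 reads in all, so the ratio of means was 35181-fold with a 95% counting interval of 9739 to 290498, which covers counting error only. RFPL4A (ENSG00000223638, chromosome 19, 55759014 to 55763175) had no read in the 3 resistant 2 libraries, against 3940.2, 5881 and 6219 in parental cells, and was at least 1487-fold lower at a floor of 3 reads per library. TAF11L14 had 1.33, 0 and 0 in resistant 2, against 6701, 9652 and 9481 in parental cells. Between the homeobox genes LEUTX and TPRX1 the pattern was shared: LEUTX had 0, 2.30 and 0 in resistant 2, against 3034, 4067 and 4557 in parental cells, and TPRX1 had 0, 1.15 and 0 in resistant 2, against 2706, 4037 and 4219 in parental cells. DPPA3, a maternal factor that guards methylation in the early embryo, had 0, 1.15 and 0 in resistant 2, against 1091, 1826 and 1753 in parental cells. KDM4F, a relative of the histone demethylases, was without a read in resistant 2 and had 785, 1118 and 1142 in parental cells, at least 282-fold lower. PRAMEF6, PRAMEF9 and PRAMEF11 belong to a cluster of near-identical genes on chromosome 1, as TRIM43B, RFPL4A and TAF11L14 have close copies elsewhere, so reads may be split among copies and each single gene is uncertain. Their parental levels were 2349, 3307 and 3366 for PRAMEF6, with no read in resistant 2.

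Of 44 cleavage-stage genes found in the tables, a list set after values of these data had been seen, 24 could not be restored and 20 were tested. Without the drug-exposed parental libraries 17 of the 20 would not have reached the filter on low values, so their direction was set by the filter and is given as a description. In 11 of the 20 resistant 2 had no read. Summed over the 20 genes, resistant 2 held 56.4 to 61.3 normalized counts, resistant 1 held 141 to 213 and parental cells held 51838 to 78296. Nearly all of the resistant 2 sum was RFPL2, at 55.4 normalized counts on average in resistant 2 and 4358 in parental cells. With DMSO both populations were low, at 31.5 to 45.2 in resistant 2 and 29.2 to 34.5 in parental cells. The gene for DUX4 itself, whose near-identical repeat copies make its count uncertain, had no read in resistant 2 and averaged 13.4 in parental cells under the drugs. Promoters of the list were searched for the DUX4 motif, a double homeobox site with a pyrimidine at its 3 middle positions, on both strands of the 250 bases before the start. Among the 36 list promoters found in RefSeq, 5 held it (13.9%), those of RFPL4A, TRIM48, TRIM51, H3Y1 and SSU72L6, against 45 of all 27305 promoters (0.165%). With any base at those positions 8 of the 36 held it (22.2%), against 230 of all promoters (0.842%). Several of these genes are copies that share sequence, and the motif was chosen after values had been seen. Since genes of this kind are known DUX4 targets, a raised share of the motif is no separate result about these libraries. Of the 5 genes with the motif, TRIM48 and H3Y1 were not among the 20 tested. Promoters were found for 8 of the 12 protein-coding genes of largest decrease, and only 1 of them, that of RFPL4A, held the motif. The RFPL4A promoter, at chr19:55758847-55759096 on the plus strand of GRCh38.p14, is printed for that reason and is not typical of them. The motif, which reads on the minus strand, is in capitals.
RFPL4A: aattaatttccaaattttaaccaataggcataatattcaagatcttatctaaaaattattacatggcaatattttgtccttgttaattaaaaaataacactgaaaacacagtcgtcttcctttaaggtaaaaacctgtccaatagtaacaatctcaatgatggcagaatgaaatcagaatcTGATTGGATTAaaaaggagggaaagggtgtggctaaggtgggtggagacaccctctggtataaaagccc
It holds 1 CG pair, and the median over the list's promoters was 2, against 11 over all promoters. A match is a description of the letters, not of binding.

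Cancer-testis genes, which are normally read in the germ line and are classic targets of decitabine, were also lower. Of 46 listed genes 25 could not be restored, and of 17 tested 0 were higher and 14 lower, with a median of -3.12 (-2.98 with genes without a read at their bound). Of the 17, 2 reached the filter through the parental libraries alone. CT45A1 had 21.3, 23.0 and 37.9 normalized counts in resistant 2, against 1126, 1234 and 1178 in parental cells (log2 difference -5.42 ± 0.286). GAGE2A had 0, 2.30 and 0 in resistant 2, against 179, 208 and 171 in parental cells. TDRD1 and TEX15, both needed in male germ cells, averaged 148 ± 27.4 and 242 ± 112 in resistant 2, against 1803 ± 96.4 and 2787 ± 249 in parental cells (SD, n = 3 each). In none of these 4 genes did the groups overlap. CT45 and GAGE genes lie in clusters of close copies, which makes single values uncertain.

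A separate set of genes was at or near 0 in resistant 2 while both parental cells and resistant 1 carried it. SLFN11 (ENSG00000172716, chromosome 17, 35350305 to 35373701), a protein that blocks stalled replication forks and whose loss is known to protect cancer cells from many DNA-damaging drugs, had 0, 4.61 and 4.46 normalized counts in resistant 2, against 5837, 6025 and 5775 in parental cells. The log2 difference was -10.88 ± 0.493 (adjusted p = 4.25e-09), and resistant 1 averaged 4965 ± 145 (SD, n = 3). With DMSO the means were 0 ± 0 in resistant 2 and 5218 ± 591 in parental cells. Its promoter, at chr17:35373622-35373871 on the minus strand, holds 15 CG pairs, shown in capitals, where the median over all genes tested was 20.
SLFN11: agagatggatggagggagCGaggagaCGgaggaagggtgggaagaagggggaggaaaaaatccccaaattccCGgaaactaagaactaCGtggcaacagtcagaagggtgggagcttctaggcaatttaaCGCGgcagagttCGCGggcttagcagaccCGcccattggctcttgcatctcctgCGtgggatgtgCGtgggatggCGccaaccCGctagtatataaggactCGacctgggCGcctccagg
Among its family, SLFN13 averaged 1213 ± 323 in resistant 2 and 3011 ± 154 in parental cells, SLFN12L 10.2 ± 2.83 in resistant 2 and 106 ± 12.1 in parental cells, and SLFN5 was higher, at 24439 ± 6609 in resistant 2 and 12081 ± 1078 in parental cells. The imprinted gene PEG3, a zinc finger gene read from the paternal copy, had no read in resistant 2 and 415, 451 and 378 in parental cells, at least 115-fold lower, with 526 ± 53.2 in resistant 1. PEG10, an imprinted gene derived from a retrotransposon, had 43.9, 59.9 and 84.7 in resistant 2, against 4134, 4482 and 4473 in parental cells. The whole imprinted list was mixed, with 5 of 11 genes higher and 4 lower, and 4 higher and 5 lower under quantile normalization.

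Zinc finger genes of chromosome 19, most of which encode KRAB proteins that bind transposable elements, were read as a set, chosen after values had been seen. Of 283 with such symbols in the tables, 213 were tested: 36 were higher and 127 lower, with a median of -0.54, which stayed below 0 under the other scalings (-0.60 and -0.64). On the other chromosomes 278 tested genes gave 90 higher and 119 lower (median -0.06), and all tested genes gave 33.5% lower. Of the 213 and the 278, 3 and 7 reached the filter through the parental libraries alone, so their direction was set by the filter. In 31 of the chromosome 19 genes the decrease passed 32-fold. ZIM3, 1 of the 31, reached the filter through the parental libraries alone, with no read in either resistant population. Parental cells averaged 31.9 to 2089 normalized counts in those genes and resistant 2 at most 68.5, while resistant 1 reached at least 50% of the parental level in 25 of them. With DMSO parental cells were under 10 in 20 of the 31 and at 50 or more in 6. ZFP82 (chromosome 19, 36383120 to 36418656) was one of the 6, with 0, 3.45 and 1.11 in resistant 2, against 1113, 1202 and 1332 in parental cells under the drugs, and with 0 ± 0 in resistant 2 and 839 ± 70.3 in parental cells under DMSO. ZNF677 was one of the 20, with 0, 2.30 and 0 in resistant 2, against 959.9, 1197 and 1092 in parental cells under the drugs, and no read in either population under DMSO. Promoters were found for 23 of the 31 genes, with a median of 11 CG pairs (6 to 35). That median was 16 over the tested zinc finger genes of chromosome 19 and 20 over all genes tested. The ZFP82 promoter, at chr19:36418645-36418894 on the minus strand, is toward the CG-rich end of that range, with 31 pairs in capitals. It is printed as 1 example of a gene that resistant 1 still carried.
ZFP82: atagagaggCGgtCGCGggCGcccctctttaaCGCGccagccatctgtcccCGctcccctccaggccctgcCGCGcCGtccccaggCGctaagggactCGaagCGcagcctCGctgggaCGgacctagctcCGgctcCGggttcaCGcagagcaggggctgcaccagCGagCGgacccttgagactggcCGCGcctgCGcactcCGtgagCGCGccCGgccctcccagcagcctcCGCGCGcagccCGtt
Among zinc finger genes elsewhere, ZNF804A averaged 9.61 ± 5.29 in resistant 2 and 1617 ± 84.7 in parental cells, and ZNF883 1.89 ± 1.75 in resistant 2 and 178 ± 5.80 in parental cells.

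**Figure D3:**
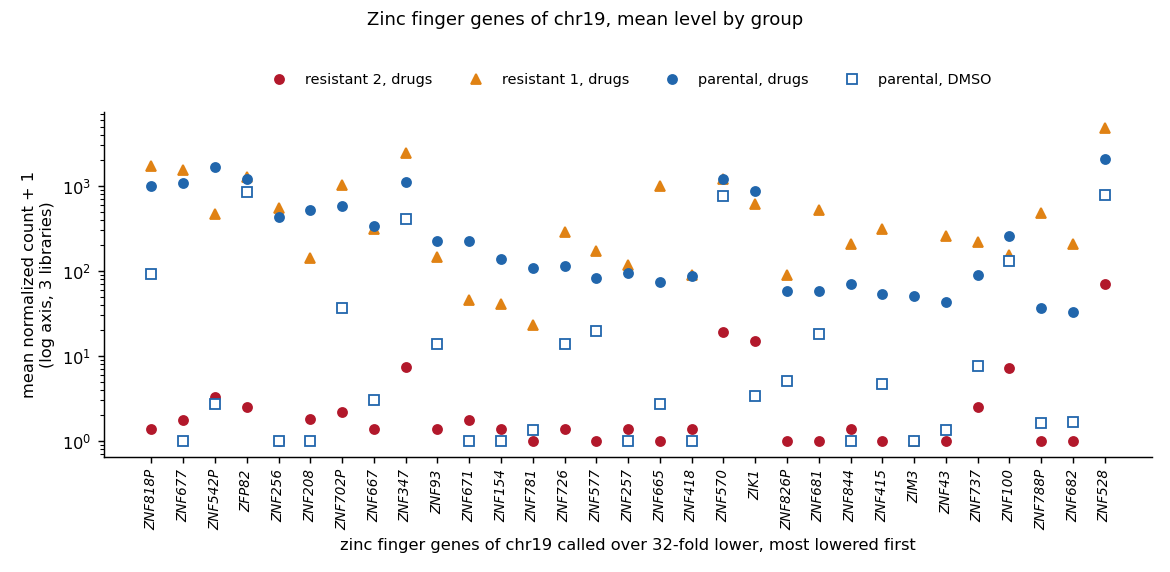
Mean normalized count + 1 (log axis) of the 31 chromosome 19 zinc finger genes that were called more than 32-fold lower in resistant 2, for resistant 2, resistant 1 and parental cells with ATRA plus decitabine (drugs) and for parental cells with DMSO, which were normalized separately. Resistant 2 lies below drug-exposed parental cells in all 31 genes and below resistant 1 in 30, with 1 tie at 0. Resistant 1 lies at 50% of the parental level or more in 25 of the 31, and parental cells with DMSO lie below drug-exposed resistant 2 in 9.

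Nuclear copies of mitochondrial genes were the largest decreases of all in size. MTATP6P1, a copy of the mitochondrial ATP synthase subunit gene on chromosome 1, had no read in resistant 2 and 74851, 73358 and 73961 normalized counts in parental cells. MTCO1P12 and MTND2P28 were without a read in resistant 2 as well, at 65279 ± 1766 and 15382 ± 166 in parental cells. MTRNR2L12, a protein-coding entry that copies the mitochondrial ribosomal RNA, had no read in resistant 2 and 1525, 1984 and 2036 in parental cells. All 4 were also without a read in resistant 1 and differed alike with DMSO. Among 412 such copies, 385 were under the filter and 20 were tested. Of these 19 reached the filter through the parental libraries alone, so their direction is no separate result. They match mitochondrial RNA almost base for base, so these counts are uncertain.

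Genes of the transition from epithelial to mesenchymal character moved on both sides. CDH1, the junction protein E-cadherin, had 30.6, 39.1 and 56.8 normalized counts in resistant 2, against 1387, 1416 and 1404 in parental cells (log2 difference -5.07 ± 0.209, adjusted p = 2.24e-09). With DMSO it averaged 1.07 ± 1.09 in resistant 2 and 1.38 ± 1.20 in parental cells, so neither population carried it there. The epithelial adhesion molecule EPCAM had 47.9, 44.9 and 83.6 in resistant 2, against 899, 1081 and 1105 in parental cells. CDH3 (P-cadherin) averaged 15.5 ± 3.10 in resistant 2 and 816 ± 281 in parental cells, the tight-junction protein CGN 41.6 ± 15.5 in resistant 2 and 915 ± 71.0 in parental cells, and KRT8 98880.1 ± 18554 in resistant 2 and 180048 ± 33077 in parental cells. Of 29 junction and keratin genes, 8 were higher and 18 lower (median -0.87), and 2 reached the filter through the parental libraries alone. CDH2, the mesenchymal N-cadherin, had 11398, 11704 and 10659 in resistant 2, against 1557, 1452 and 1447 in parental cells (2.92 ± 0.087). VIM, the intermediate filament vimentin, had 137958, 107817 and 105662 in resistant 2, against 51325, 48642 and 50219 in parental cells (1.22 ± 0.105). Its difference with DMSO was 0.23, and the difference between the treatments was called (0.82 ± 0.139, adjusted p = 1.27e-04). THY1 was an exception in the EMT list, at 13.9 ± 5.48 in resistant 2 and 589 ± 54.3 in parental cells. That list had 17 of 27 genes higher and 7 lower (median 1.24), and its DMSO median was 2.16.

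Receptors and targets of TGF-beta were higher almost throughout. Of 28 tested, 24 were higher and 2 lower, beside backgrounds of 37.6% and 33.5%, with a median of 1.03. The receptor TGFBR2 had 18663, 20097 and 21135 normalized counts in resistant 2, against 3011, 2861 and 3167 in parental cells. PMEPA1, a feedback inhibitor of the pathway, had 24979.5, 17454 and 13945 in resistant 2, against 1813, 1452 and 1366 in parental cells. In integrins, 10 of 15 were higher and 3 lower (median 1.24): ITGB3, the beta subunit of a vitronectin receptor, averaged 1599 ± 244 in resistant 2 and 44.8 ± 9.07 in parental cells, while ITGB7 averaged 122 ± 28.0 in resistant 2 and 503 ± 12.2 in parental cells. The YAP and TEAD targets counted 19 higher and 4 lower of 26 (median 0.68), with ANKRD1, a nuclear ankyrin protein, at 21863 ± 1236 in resistant 2 and 4372 ± 706 in parental cells. AXL, a receptor kinase in this list, averaged 8969.7 ± 2466 in resistant 2 and 2567 ± 379 in parental cells. TGFA, a ligand of the EGF receptor, had 236043, 284784 and 234019.8 in resistant 2, against 2084, 2236 and 2034 in parental cells, a log2 difference of 6.89 ± 0.089. Growth factors and their receptors as a list were mixed, with 16 of 34 higher and 13 lower: KIT averaged 610.2 ± 215 in resistant 2 and 80.8 ± 2.76 in parental cells, and IGF2 149.6 ± 12.3 in resistant 2 and 1946 ± 136 in parental cells.

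Cell-cycle genes were lower in resistant 2 under the drugs, and the gap was narrower than with DMSO. Of 39 G2/M and mitosis genes, 1 was higher and 35 were lower, with a median of -0.87 with the drugs and -1.89 with DMSO. The difference between the treatments, fitted over all 18 libraries on log2(CPM + 1), was called upward in 35 of them and downward in 0, beside a background of 47.8% of 20211 genes called, 19.0% upward and 28.8% downward. That background turned to 5651 upward and 4675 downward calls under quantile normalization, against 3847 and 5820 as tested, and the list then counted 31 upward and 1 downward. MKI67, the Ki-67 antigen of dividing cells, had 19462, 22324 and 26816 normalized counts in resistant 2, against 64666, 71667 and 64747 in parental cells. CDC20, which activates the anaphase-promoting complex, had 6635, 5452 and 6762 in resistant 2, against 32011, 32563 and 34204 in parental cells (-2.40 ± 0.104). TOP2A and CCNB1 differed by -1.28 ± 0.126 and -0.92 ± 0.107. Of 43 G1/S and replication genes, 1 was higher and 33 were lower (median -0.77, with DMSO -2.02). Among them E2F2 averaged 729 ± 307 in resistant 2 and 2478 ± 268 in parental cells, and ORC1, of the origin recognition complex, 2009.8 ± 509 in resistant 2 and 6383 ± 208 in parental cells. Of 27 homologous recombination and Fanconi genes, 3 were higher and 16 lower, with BRCA1 at 4058 ± 987 in resistant 2 and 14314 ± 303 in parental cells. RBBP8, which starts the resection of broken ends, ran the other way, at 14088 ± 1759.6 in resistant 2 and 6092 ± 207 in parental cells. MYC, the growth regulator, had 12982, 14917 and 14641 in resistant 2, against 51370.2, 61591 and 64199 in parental cells (-2.05 ± 0.110), and its difference with DMSO was -2.00. Among cyclins, CCND1 averaged 60641 ± 9293 in resistant 2 and 19927 ± 2055 in parental cells, while CCND2 averaged 82.0 ± 31.1 in resistant 2 and 231 ± 15.9 in parental cells.

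The p53 target genes differed between the treatments, with a median of -1.75 for the difference of differences. With the drugs 18 of 38 target genes were higher in resistant 2 and 12 lower, with a median of 0.21 that turned to -0.13 under quantile normalization. With DMSO the median was 1.43, and the difference between the treatments was called downward in 34 genes and upward in 0. CDKN1A, the cell-cycle inhibitor p21, had 125125, 116259 and 107949 normalized counts in resistant 2, against 66480.1, 61113 and 65500.0 in parental cells, a log2 difference of 0.85 ± 0.072. With DMSO it averaged 122123 ± 22858 in resistant 2 and 5049.9 ± 689.8 in parental cells, a difference of 4.59. MDM2, the ubiquitin ligase that degrades p53, had 85409.9, 111911 and 105516 in resistant 2, against 189232, 161536 and 158096 in parental cells, so that it was lower with the drugs (-0.75 ± 0.104) and higher with DMSO (1.80). TP53I3 and the decoy receptor TNFRSF10C followed MDM2, lower with the drugs (-1.47 and -1.60) and higher with DMSO (2.17 and 2.31). GDF15, a secreted stress factor, had 61688, 43089 and 48741 in resistant 2, against 30212, 29127 and 31682 in parental cells, and its call was lost under quantile normalization (adjusted p = 0.072). TRIM22 stayed higher in both treatments, at 2.58 with the drugs and 5.98 with DMSO.

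The ATF4, NRF2 and glycolysis lists leaned upward with the drugs and had medians near 0 with DMSO. Under quantile normalization the NRF2 list had 14 genes higher and 7 lower with the drugs (median 0.17), the glycolysis list 12 and 6 (0.32) and the ATF4 list 24 and 1 (1.18). The genes that ATF4 switches on when amino acids run short counted 24 higher and 1 lower of 26, with a median of 1.53 with the drugs and 0.00 with DMSO. Their summed level was 1394139 to 1656213 in resistant 2 and 425572 to 484402 in parental cells. WARS1, the tryptophanyl-tRNA synthetase, had 426369, 381962 and 240230.3 normalized counts in resistant 2, against 32201, 28933 and 31991 in parental cells (3.45 ± 0.175). SHMT2, a mitochondrial enzyme of one-carbon metabolism, had 96681, 98937 and 92968 in resistant 2, against 20489.9, 17450.5 and 19056 in parental cells. TRIB3, a pseudokinase that brakes the response, was higher with the drugs (2.19) and lower with DMSO (-0.60), with a difference of 2.61 ± 0.294 between the treatments (adjusted p = 2.01e-06). CHAC1, which cleaves glutathione, averaged 15397 ± 1009 in resistant 2 and 3202 ± 427 in parental cells. INHBE, an inhibin subunit, had 1918, 2580.0 and 1943 in resistant 2, against 143, 153 and 164 in parental cells, and differed by -0.35 with DMSO. Of 31 NRF2 target and glutathione genes, 21 were higher and 3 lower (median 0.56, with DMSO -0.07). AKR1C3, an aldo-keto reductase, had 88969, 92414 and 81522 in resistant 2, against 14199, 14169 and 16286 in parental cells, while GPX2, a glutathione peroxidase of epithelia, had 1651, 870.4 and 1228 in resistant 2, against 20121, 16184 and 16768 in parental cells. Of 24 glycolysis genes, 18 were higher and 1 lower (median 0.71, with DMSO -0.14), with the glucose transporter SLC2A1 at 74348 ± 23653 in resistant 2 and 16805 ± 2265 in parental cells.

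Lipid and protein synthesis genes split. Of 26 sterol genes 6 were higher and 15 lower (median -0.35), with INSIG1, the sensor that restrains sterol synthesis, at 829.8 ± 30.7 in resistant 2 and 4636 ± 1036 in parental cells and INSIG2 at 6400.4 ± 1142 in resistant 2 and 1895 ± 73.9 in parental cells. With DMSO the sterol median was -1.25, and 18 genes were called upward between the treatments. FADS2, a fatty acid desaturase, averaged 1836 ± 128 in resistant 2 and 10218 ± 600.3 in parental cells. SCD, the desaturase that makes oleate, was not called with the drugs, at 58915 ± 4017 in resistant 2 and 67491 ± 4862 in parental cells (log2 difference -0.20 ± 0.082, adjusted p = 0.0501), and differed by -3.29 with DMSO. With the drugs SCD was called lower under edgeR, DESeq2, TMM scaling and quantile normalization (-0.71 in limma under the last, adjusted p = 3.68e-06). The fatty acid list had 10 of 22 genes higher and 8 lower, which turned to 7 higher and 11 lower under quantile normalization (median 0.05 as tested, -0.01 under TMM scaling and -0.18 under quantile normalization). Ribosomal protein genes were higher in 21 and lower in 2 of 24, with a median of 0.32 that turned to -0.13 under quantile normalization, and EEF1A1, a translation elongation factor, likewise turned over, at 0.49 as tested and -1.18 under quantile normalization. Heat shock proteins and cochaperones, a list set after values had been seen, counted 6 higher and 17 lower of 28 (median -0.40). The chaperones HSPA8 and HSP90AA1 led in absolute size. HSPA8 had 90321, 138703 and 166065 normalized counts in resistant 2, against 324669, 332327 and 341441 in parental cells. HSP90AA1 had 253654, 318887 and 336767 in resistant 2, against 455956, 490559.7 and 490435 in parental cells. The RNA-binding proteins HNRNPU and HNRNPA2B1 and the RNA polymerase subunit POLR2A were the other large absolute decreases, at -1.17, -0.72 and -0.98 on the log2 scale. Lysosome and autophagy genes were higher in 25 and lower in 4 of 30 (median 0.71), with the hexosaminidase HEXA at 37059 ± 2545 in resistant 2 and 8737 ± 516 in parental cells.

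**Figure D4:**
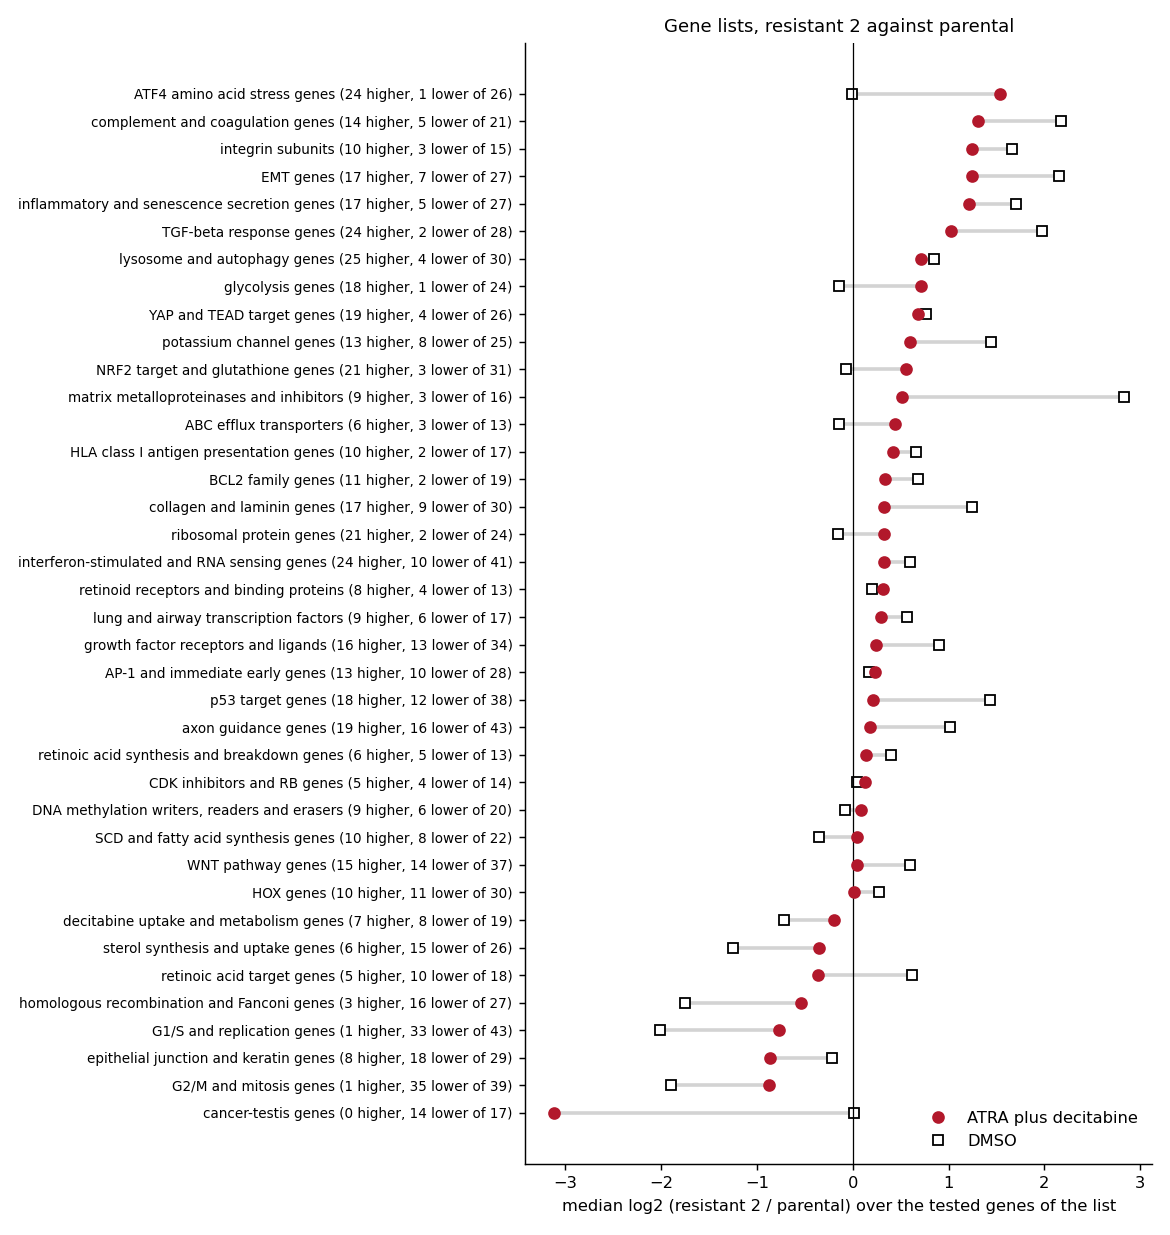
Median log2 difference of resistant 2 minus parental for each gene list with at least 10 tested genes, with ATRA plus decitabine (filled circles) and with DMSO (open squares). The p53 target genes lie at 0.21 with the drugs and 1.43 with DMSO, the ATF4 genes at 1.53 with the drugs and 0.00 with DMSO, and the G2/M genes at -0.87 with the drugs and -1.89 with DMSO.

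Genes on the path of the 2 drugs themselves showed both directions. SLC29A1, the nucleoside transporter that carries decitabine into cells, had 1062, 1394 and 1932 normalized counts in resistant 2, against 6646, 5591 and 5756 in parental cells (log2 difference -2.07 ± 0.172, adjusted p = 5.20e-07). DCK, the kinase that activates decitabine, had 2527, 3494 and 3779.6 in resistant 2, against 3657, 3522 and 3802 in parental cells, and was not called (adjusted p = 0.23). Under quantile normalization DCK was called lower (-0.38, limma, adjusted p = 0.0172). DCTD, a deaminase of deoxycytidylate, was higher, at 15887 ± 1035 in resistant 2 and 5072 ± 267 in parental cells, while SAMHD1, a triphosphate hydrolase, averaged 6165 ± 1736 in resistant 2 and 12373 ± 317 in parental cells. RRM1 and RRM2, which make deoxynucleotides in dividing cells, differed by -0.49 ± 0.110 and -0.50 ± 0.196, and RRM2B, the p53-controlled subunit, by 1.48 ± 0.093. The call on RRM2 was lost in 5 of the 6 fits that left out 1 library, and without resistant 2 replicate 1 its difference was -0.20 (adjusted p = 0.0953). DNMT1, the maintenance methyltransferase that decitabine traps, had 11879, 12588 and 15483 in resistant 2, against 27148, 25422 and 25594 in parental cells. Its partner UHRF1 had 1618, 1873 and 3646 in resistant 2, against 9558, 7447 and 7879 in parental cells, DNMT3B averaged 1171 ± 122 in resistant 2 and 2910.2 ± 239.9 in parental cells, and DNMT3A was higher (0.80 ± 0.083). TET1, which oxidises methylcytosine, averaged 293 ± 53.8 in resistant 2 and 1135 ± 153 in parental cells. Of 20 methylation genes 9 were higher and 6 lower, turned to 6 higher and 9 lower under quantile normalization, and of 19 uptake and metabolism genes 7 were higher and 8 lower. The methylation median was 0.08 as tested and -0.14 under quantile normalization. The deaminase CDA could not be restored.

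On the retinoid side, the receptor RARB had 6205, 8789 and 8190.0 normalized counts in resistant 2, against 4171, 4149.8 and 4223 in parental cells (0.87 ± 0.112), RARA differed by 0.73 ± 0.130 and RARG was not called (0.18 ± 0.101, adjusted p = 0.132). RXRA differed by 0.59 ± 0.152, a call lost under quantile normalization (adjusted p = 0.0779). CRABP2, which carries retinoic acid to its receptors and is itself a target, had 214, 159 and 162 in resistant 2, against 2414, 2207 and 2197 in parental cells (-3.68 ± 0.148). ALDH1A1, an enzyme that makes retinoic acid, had 164768, 116032 and 90831 in resistant 2, against 6226, 5261 and 5292 in parental cells. DHRS3, which turns retinal back to retinol and is induced by ATRA, averaged 34297 ± 2582 in resistant 2 and 12438 ± 1077 in parental cells, TGM2, the transglutaminase target, 171573 ± 17906 in resistant 2 and 27054 ± 856 in parental cells. Of 18 target genes 5 were higher and 10 lower with the drugs (median -0.36), the DMSO median was 0.62, and 16 were called downward between the treatments against 1 upward. The receptors and binding proteins counted 8 higher and 4 lower of 13, a lean that turned to 3 higher and 4 lower under quantile normalization, and the synthesis and breakdown genes 6 higher and 5 lower of 13. CYP26A1, CYP26B1 and STRA6 could not be restored.

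Among efflux pumps, ABCG2 had 3709.8, 4695 and 6462 normalized counts in resistant 2, against 17388, 15233 and 15769.7 in parental cells and an average of 37671 ± 2512 in resistant 1. ABCB1, the P-glycoprotein, had 581, 1058 and 981 in resistant 2, against 1148, 1195 and 1120.3 in parental cells. Its decrease (-0.45 ± 0.176, adjusted p = 0.0375) was lost in 4 of the 6 fits that left out 1 library, and without resistant 2 replicate 1 it was -0.18 (adjusted p = 0.0565). Resistant 1 averaged 14713 ± 350.1. ABCC3 was higher, with 173896, 147843 and 135753 in resistant 2, against 26400.2, 24184 and 24995 in parental cells. The list had 6 of 13 genes higher and 3 lower.

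Immune and secreted factors leaned upward. In the list of inflammatory and senescence-related secreted proteins 17 of 27 were higher and 5 lower (median 1.21), with the chemokine CCL2 at 177 ± 58.0 in resistant 2 and 9.22 ± 2.81 in parental cells and the cytokine IL11 lower, at 82.5 ± 22.8 in resistant 2 and 1176 ± 217 in parental cells. Complement and coagulation genes counted 14 higher and 5 lower of 21, with C3 at 33364, 27344 and 38167 normalized counts in resistant 2, against 849.7, 1085 and 1264 in parental cells. Of 17 class I antigen presentation genes 10 were higher and 2 lower, with B2M, the invariant light chain, at 192548, 185090.4 and 172462 in resistant 2, against 49261, 47959.7 and 51384 in parental cells. The interferon-stimulated and RNA-sensing list had 24 of 41 genes higher and 10 lower (median 0.32). SAMD9L, an interferon-induced restriction factor, averaged 7105 ± 1106 in resistant 2 and 973 ± 65.4 in parental cells, and XAF1, a promoter of cell death, 810.1 ± 35.7 in resistant 2 and 105 ± 13.2 in parental cells. In the BCL2 family 11 of 19 were higher and 2 lower: the survival proteins BCL2L1 and BCL2L2 differed by 1.59 ± 0.082 and 1.91 ± 0.094, and the killer BIK by -1.60 ± 0.176.

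The other lists lay nearer the background. WNT pathway genes counted 15 higher and 14 lower of 37, with the ligand WNT4 at 8802 ± 521 in resistant 2 and 179.7 ± 50.1 in parental cells, WNT10B at 163 ± 61.4 in resistant 2 and 1575 ± 132 in parental cells, and the receptor-degrading ligase RNF43 at 1148 ± 105 in resistant 2 and 34.0 ± 2.98 in parental cells. HOX genes counted 10 higher and 11 lower of 30, lung and airway transcription factors 9 higher and 6 lower of 17, and AP-1 and immediate early genes 13 higher and 10 lower of 28. Under quantile normalization the lung and airway list turned to 6 higher and 7 lower and the AP-1 list to 11 and 12. The HOX median was 0.01 as tested and -0.06 under quantile normalization. Potassium channels counted 13 higher and 8 lower of 25, led by KCNQ3 at 1506 ± 218 in resistant 2 and 37.1 ± 9.10 in parental cells. CDK inhibitors and RB genes counted 5 higher and 4 lower of 14, and 4 higher and 6 lower under quantile normalization. TBX4, a lung transcription factor, averaged 6.28 ± 2.31 in resistant 2 and 288 ± 1.10 in parental cells, and NKX2-1 128 ± 40.7 in resistant 2 and 292 ± 13.8 in parental cells. The fibroblast marker LUM averaged 34.1 ± 5.13 in resistant 2 and 669 ± 49.4 in parental cells. COL3A1 and THY1 were lower too, while the groups overlapped in the fibroblast markers DCN and PDGFRB. The neuroendocrine list counted 4 higher and 0 lower of 5, with CHGA at 4184 ± 1368 in resistant 2 and 665 ± 20.1 in parental cells. The neuroendocrine marker SYP went the other way, with 704, 743 and 854 in resistant 2, against 923, 968 and 860 in parental cells.

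Tested against resistant 1 under the same drugs, resistant 2 differed in 57.2% of genes and was higher in 5738 (28.7%) and lower in 5698 (28.5%). This comparison and the one against parental cells share the resistant 2 libraries. All 12 genes of largest increase over parental cells were also higher than in resistant 1, and 9 of the 12 of largest decrease were also lower. For the cleavage-stage genes resistant 1, like resistant 2, stood far under parental cells. Resistant 2 was called lower than resistant 1 in 10 of the 20 tested and higher in 0, with a median log2 difference of -1.29. Most of these levels were near 0 in both resistant populations, and 17 of the 20 reached the filter through the parental libraries alone. LEUTX averaged 0.768 in resistant 2 and 6.52 in resistant 1, and RFPL2, the highest in both, 55.4 and 69.2. TRIM43B averaged 0.768 ± 1.33 in resistant 2, 45.4 ± 17.3 in resistant 1 and 27002 ± 5829 in parental cells (SD, n = 3 each). For SLFN11 resistant 1 stood near parental cells, and the log2 difference of resistant 2 minus resistant 1 was -10.63 ± 0.493 (adjusted p = 7.72e-09). FN1 lay between, at 1551645 ± 191481 in resistant 1, and differed from it by 1.88 ± 0.106.

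The largest differences between the treatments were read on CPM, in which every library is brought to 1 common total by edgeR TMM factors, where adding 1 before the logarithm understates low genes. Among the largest downward differences were those of the cleavage-stage genes TRIM43B, TAF11L14 and RFPL4A, at -7.61 ± 0.164, -5.97 ± 0.139 and -5.30 ± 0.153. CSAG1, a cancer-testis gene of the X chromosome, had 2.85 ± 0.188 CPM in resistant 2 and 4.13 ± 0.416 in parental cells with the drugs, and 30.7 ± 2.53 in resistant 2 and 0.0593 ± 0.0239 in parental cells with DMSO (SD, n = 3 each). Its difference between the treatments was -5.31 ± 0.118, and with DMSO it was resistant 2 that carried it. RRAD, a small GTPase that p53 induces, had 0.306 ± 0.106 CPM in resistant 2 and 44.4 ± 7.40 in parental cells with the drugs, and 0.0856 ± 0.0398 in resistant 2 and 0.0983 ± 0.0579 in parental cells with DMSO. CA2, carbonic anhydrase II, had 11.7 ± 5.10 in resistant 2 and 61.5 ± 11.7 in parental cells with the drugs, and 37.7 ± 14.6 in resistant 2 and 4.52 ± 0.421 in parental cells with DMSO. Upward, HVCN1, a voltage-gated proton channel, had 0.802 ± 0.127 CPM in resistant 2 and 9.40 ± 0.391 in parental cells with the drugs, and 0.363 ± 0.078 in resistant 2 and 60.6 ± 5.39 in parental cells with DMSO. SCD had 393 ± 24.5 in resistant 2 and 498 ± 36.4 in parental cells with the drugs, and 282 ± 20.5 in resistant 2 and 2733 ± 25.4 in parental cells with DMSO. In HVCN1 and SCD the parental level with the drugs was far under that with DMSO, while the resistant 2 mean was higher with the drugs. HPGDS, a prostaglandin synthase, differed by 2.65 ± 0.184 between the treatments, NAV1, a microtubule protein, by 2.68 ± 0.244, and AKNA, a centrosome protein, by 2.97 ± 0.452.

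Position along the genome was uneven as well. Genes of chromosome 15 had a median log2 difference of 0.69 with the drugs and 0.69 with DMSO, 64.8% of the 702 tested there were higher, and the median of resistant 1 minus parental was -0.14. All its 20 Mb stretches with at least 20 tested genes had medians between 0.59 and 0.98, and the median over all genes was 0.06. Chromosome 8 followed at 0.31 with the drugs and 0.29 with DMSO. Chromosomes 16 and 10 were lowest, at -0.32 and -0.27 with the drugs and -0.28 and -0.34 with DMSO. Over 157 such stretches the medians ran from -0.66, at 240 to 260 Mb of chromosome 1, to 0.98, at 80 to 100 Mb of chromosome 15. NTRK3, SEMA6D, B2M and CHAC1 named above lie on chromosome 15, and the part of position in their differences was not tested.

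**Figure D5:**
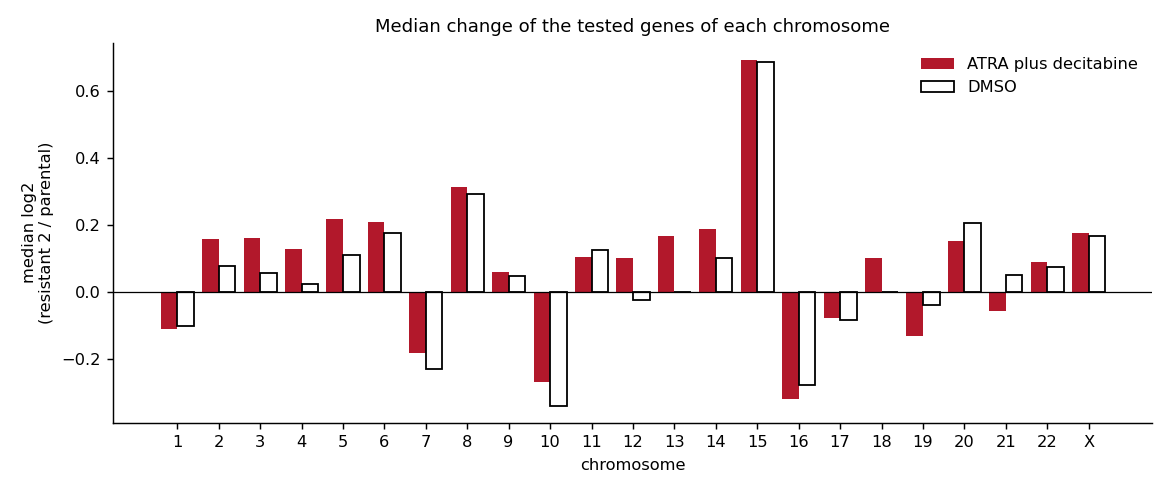
Median log2 difference of resistant 2 minus parental over the tested genes of each chromosome, with ATRA plus decitabine and with DMSO. Chromosome 15 stands apart at 0.69 in both treatments, and chromosomes 16 and 10 lie lowest with the drugs.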

How the data were processed

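RNA from 18 NCI-H460 libraries (3 per group) was extracted on RNeasy columns with DNase and made into stranded TruSeq mRNA libraries, per the labels' protocols. The tools named without versions, per the submitters' processing notes, are FastQC and MultiQC for quality, STAR on GRCh38/hg38 for alignment, featureCounts for counting and DESeq2 for normalization; the strand setting of the counting is not given in the sources used here, so overlapping and antisense genes are uncertain. The deposited values of the DMSO table are a signal, counts divided by DESeq2 size factors. Every value was a whole number of reads times a library's step, to within 0.01 of a read. In the deposited table of ATRA plus decitabine the decimal points had been lost, so the authors' values there stood as digits of another unit. For each gene the powers of 10 of its 9 values were chosen jointly so that each value was a whole number of reads, and a gene was kept where this choice had a posterior of at least 99%. With the decimal points of the DMSO table removed, the procedure restored 17374 of 21640 genes and 14 of them wrongly.

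Within each table of 9 libraries, genes that reached 10 normalized counts in 3 or more libraries entered a limma fit (version 3.58.1 with trend, R 4.3.3) on log2(normalized count + 1), with Benjamini-Hochberg adjusted p under 0.05 as the call, in 1 fit per table over its 9 libraries. The difference of differences was fitted over all 18 libraries on log2(CPM + 1), with CPM from recovered reads and edgeR 4.0.16 TMM factors. Tests were checked on simulated data. Folds against a group without a read used a floor of 3 reads per library, and counting intervals (95%, exact Poisson on the reads) and floors cover counting error only. No replicates were merged, since pairs within a group gave a chi-square per degree of freedom of 9.20 to 205, above sampling noise. Named genes were the 12 protein-coding genes of largest change in each direction, the 6 of largest absolute difference, the 6 of largest difference of differences, up to 4 called members of each list by size, and a fixed set, each with a mean of at least 50 except the fixed set. EPCAM, RFPL2 and DUX4 with their values, and the zinc finger and mitochondrial copies beyond this rule, were added after values were seen, and a few genes that the rule names are not reported here. Members and lists were chosen with earlier results of these data known. The heat shock, Schlafen and imprinted lists were set after values had been seen. Gene places are from GENCODE release 29 and promoters from RefSeq (GRCh38.p14). Alternatives covered the libraries in the fit, each library left out, a replicate block, edgeR, DESeq2 1.42.0, pseudocounts, filters, scalings and posterior limits.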

Additional observations from a re-analysis of the deposited data

Results flagged for a closer look

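The 32 named genes given here are part of those in which resistant 2 minus parental differed between ATRA plus decitabine and DMSO. The test was that of the difference of differences on log2(CPM + 1) (limma, adjusted p under 0.05). Over all 20211 genes tested 47.8% were called, and named genes outside the 32, such as TRIB3, were called too. A negative value means that resistant 2 stood lower against parental cells with the drugs than with DMSO. Among genes of the early embryo and germ line, the values were -7.61 for TRIM43B, -5.97 for TAF11L14, -5.30 for RFPL4A and -5.31 for CSAG1. For p53 targets and stress genes they were -3.87 for CDKN1A, -2.71 for MDM2, -1.80 for RRM2B, -2.38 for GDF15 and -5.09 for RRAD. Cadherins and matrix genes gave -3.15 for CDH1, -1.68 for CDH2, -0.63 for FN1 and 0.82 for VIM. The FN1 call was lost without parental replicate 1 of the drug-exposed libraries (adjusted p = 0.0525) and at a pseudocount of 5 (adjusted p = 0.0826).

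Genes of division and nucleotide supply stood upward, at 0.94 for MKI67, 0.76 for TOP2A, 0.50 for CCNB1, 0.80 for DNMT1, 0.81 for RRM1, 1.54 for RRM2, 0.44 for DCK and 1.13 for SLC29A1. Retinoid genes gave -2.38 for CRABP2, -0.58 for DHRS3 and -0.50 for RARB. The efflux pump ABCG2 gave 0.65. Upward values were largest in INHBE (3.05), AKNA (2.97), HVCN1 (2.97), SCD (2.93), NAV1 (2.68) and HPGDS (2.65), and CA2 stood at -5.10. The small differences of CCNB1, DCK, DHRS3 and RARB were lost in at least 6 of the 12 fits that left out 1 library each.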

How the results depend on the processing

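No count of called genes moved by more than 1.5 times under any alternative that was run. Leaving out each library in turn gave 6911 to 7417 higher and 6141 to 6658 lower genes for resistant 2 against parental with the drugs, and the other settings gave 6461 to 8091 and 4756 to 8882. With DMSO the counts were 6361 to 6968 higher and 5797 to 6387 lower without 1 library, and 5761 to 7664 and 5546 to 7324 otherwise. Against resistant 1 they were 5029 to 5779 and 5066 to 5576 without 1 library, and 4772 to 6260 and 4179 to 6795 otherwise. For the difference of differences they were 3401 to 3901 upward and 5449 to 5791 downward without 1 library, and 3463 to 5651 and 3946 to 7146 otherwise. Of the 233 named genes, EEF1A1 turned to -1.18 under quantile normalization with the drugs. In at least 1 setting 7 lost a call with the drugs and 3 (DCK, RARG and SCD) gained one, with causes not tested. The difference of differences was followed in 43 named genes, and 10 lost and 4 gained a call there, with causes not tested. TRIM43B and TAF11L14 lost theirs in the difference under edgeR on reads, where the log2 differences were larger in size at -12.96 and -10.11 (adjusted p = 1.00 each), and HPGDS likewise (1.64, adjusted p = 0.124); these genes have groups without or almost without reads. Quantile normalization moved the DMSO median over all genes to -0.11, against 0.02 as tested. Replicate numbers did not pair the populations: deviations of same-numbered resistant 2 and parental libraries correlated at -0.186 to 0.457 with the drugs and -0.514 to -0.221 with DMSO. Across treatments, same-numbered libraries correlated at 0.751 to 0.856 in resistant 2, each best with its own number, and at -0.273 to 0.472 in parental cells. A replicate block within each population, added after seeing the data, gave 5260 upward and 7146 downward genes for the difference of differences. The plain replicate block gave 7582 higher and 6771 lower genes with the drugs, 6729 and 6221 with DMSO, 5794 and 5745 against resistant 1, and 4073 upward and 6056 downward for the difference of differences. Of genes under a mean of 30, 42.8% were restored; depth was not tested as the cause.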
